A study of Mus musculus and Homo sapiens with 4 samples.

Results

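The classical and nonclassical major histocompatibility complex (MHC) class I antigen presentation genes of the mouse were examined in mouse embryonic fibroblasts (MEFs) with and without the long noncoding RNA NEAT1. The set was given as a list of 10 symbols: the heavy chains H2-K1, H2-D1 and H2-T23, the light chain B2m, the peptide transporter subunits Tap1 and Tap2, the loading factor Tapbp, and the immunoproteasome subunits Psmb8, Psmb9 and Psmb10. All 10 were among the 23329 gene entries measured, and each symbol had 1 entry. The list did not use the values, but it was drawn up with earlier results of these data known. The fibroblasts were derived from E13.5 embryos of C57BL/6 mice that were either wild type (WT) or NEAT1 knockout (KO), and were used at passages 2 to 3. Both lines were grown in a mixture of DMEM and Ham F12 with serum and antibiotics, with no treatment given, and poly-A+ RNA was sequenced from 1 library of each genotype. The knockout allele is not described in the labels, and nothing says how many embryos each line came from. The other 2 libraries of the series are human prostate cancer cells and were not used here. With 1 library per genotype there was no replicate spread and no test of any difference, so both values are given throughout and every difference is one between these 2 libraries.

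MHC class I molecules display short peptides from proteins made inside the cell to CD8+ T cells and natural killer cells. The proteasome cuts proteins into peptides, the TAP transporter pumps them into the endoplasmic reticulum, and tapasin and its partner chaperones help to fit them onto a heavy chain paired with beta2-microglobulin. Interferons raise the expression of most genes of this pathway in fibroblasts, in part by exchanging catalytic subunits of the standard proteasome for those of the immunoproteasome.

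Levels were deposited as RPKM (reads per kilobase of transcript, scaled to the mapped reads of the library), a scale that allows for gene length within a library. It does not correct for reads shared between genes, a limit on every ratio between genes given below. Genes of 1 complex could lie far apart on it, as the proteasome core subunits Psma3 (2.62 RPKM in WT) and Psmb4 (215) did. The cause was not tested. Differences are given as the log2 ratio of KO + 1 to WT + 1 RPKM, with a log2 ratio past 1 in either direction taken as the threshold. The knocked-out gene itself was at 29.5 RPKM in the WT library and 2.01 RPKM in the KO library. The 2 libraries also differed in Xist, at 28.6 and 0.04997 RPKM, and in the summed RPKM of 8 Y-linked genes, at 0.0233 and 13.2. Genotype therefore cannot be told apart from the sex of the embryo, the embryo itself or the culture. The values of low single-exon entries moved in whole steps of sequenced bases, most often 98. This was taken as 1 fragment read over 49 bases from each end. The value 98 was held by 24 of 210 such entries in WT and 19 of 188 in KO. With 98 bases as 1 fragment, the depth was about 31290000 fragments in WT and 29530000 in KO. Another reading would change the fragment numbers by a constant factor, and with them the width of the counting intervals given below. Over the 10888 entries that reached 1 RPKM in WT as well as in KO, the log2 ratio had a median of -0.06, and the median of 8 housekeeping genes was -0.04.

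All 10 class I presentation genes were higher in the KO library, with log2 ratios between 0.47 and 1.66 and a median of 1.01. The immunoproteasome subunits Psmb9 and Psmb8 and the transporter subunit Tap1 had the largest ratios, and B2m, the most abundant member, had the smallest. Of the 10, 5 passed a log2 ratio of 1, namely Psmb9, Psmb8, Tap1, H2-T23 and H2-K1, against 228 of all 23329 entries (0.977%) and 1.99% of the 11463 entries with at least 1 RPKM in either library. None of the 10 passed a log2 ratio of 2, a threshold that 0.223% of all entries and 0.454% of the expressed entries passed upwards. None was below a log2 ratio of -1, as 0.334% of all entries and 0.68% of the expressed entries did. A ratio above 0 was found for 39.2% of the expressed entries. Ranked by log2 ratio over all entries, the members lay between rank 89 and rank 751, the latter within the top 3.22%. Their summed level was 791 RPKM in WT and 1241 RPKM in KO, a ratio of 1.57. In bulk RNA a larger number of cells expressing a gene and more RNA in each cell cannot be told apart.

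**Figure D1:**
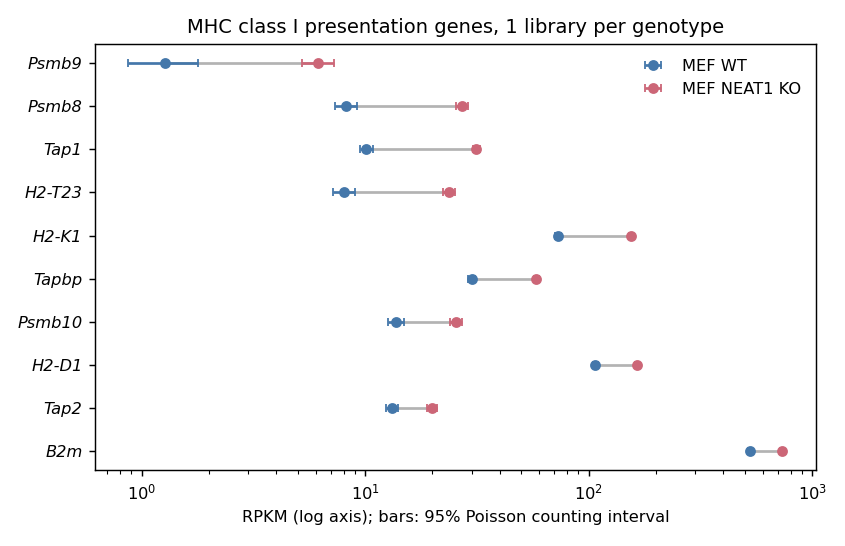
RPKM of the 10 class I presentation genes in the WT and the KO library (1 library each) on a log axis, with lines joining the values of a gene and bars for the 95% counting interval. The KO value lies to the right of the WT value for every gene, with the widest separation for Psmb9 (1.27 and 6.17 RPKM) and the narrowest for B2m (527 and 729 RPKM).

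Since the members were higher together, the sequences upstream of their transcription start sites were read from the RefSeq promoter table of build GRCm38.p6, which spans 250 bases before to 50 bases after each start. A window was found for 9 of the 10 members, and that of Tap2 was not found. Of the 2 windows of H2-K1, the one at the start of its entry was used. Of these, 6 are printed 5′ to 3′ on the gene's strand because each holds letters searched for other than CCAAT alone, with the motif letters in capitals. The window of Psmb9 largely overlaps that of Tap1 and is not repeated. The windows are those of H2-K1 (chr17:34000284-34000583, minus strand), H2-D1 (chr17:35262844-35263143, plus strand), H2-T23 (chr17:36032652-36032951, minus strand), B2m (chr2:122147437-122147736, plus strand), Tap1 (chr17:34187306-34187605, plus strand) and Psmb8 (chr17:34197945-34198244, plus strand).
H2-K1: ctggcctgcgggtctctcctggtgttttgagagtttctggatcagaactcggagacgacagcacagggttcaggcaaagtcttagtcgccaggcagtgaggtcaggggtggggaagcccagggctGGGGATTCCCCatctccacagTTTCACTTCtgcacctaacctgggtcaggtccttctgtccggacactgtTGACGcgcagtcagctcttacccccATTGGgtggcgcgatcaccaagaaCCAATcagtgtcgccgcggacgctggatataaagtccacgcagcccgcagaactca
H2-D1: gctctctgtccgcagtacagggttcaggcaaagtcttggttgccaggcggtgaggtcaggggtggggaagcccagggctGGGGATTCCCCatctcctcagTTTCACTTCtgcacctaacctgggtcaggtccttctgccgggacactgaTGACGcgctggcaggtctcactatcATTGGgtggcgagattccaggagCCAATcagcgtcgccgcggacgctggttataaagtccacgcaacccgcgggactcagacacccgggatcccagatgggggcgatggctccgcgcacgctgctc
H2-T23: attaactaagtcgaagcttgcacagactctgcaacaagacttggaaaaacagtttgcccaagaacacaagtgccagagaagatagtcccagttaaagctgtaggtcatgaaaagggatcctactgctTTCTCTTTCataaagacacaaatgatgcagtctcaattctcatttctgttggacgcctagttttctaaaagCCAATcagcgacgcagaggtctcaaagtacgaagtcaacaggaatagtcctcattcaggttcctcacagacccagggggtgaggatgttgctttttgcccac
B2m: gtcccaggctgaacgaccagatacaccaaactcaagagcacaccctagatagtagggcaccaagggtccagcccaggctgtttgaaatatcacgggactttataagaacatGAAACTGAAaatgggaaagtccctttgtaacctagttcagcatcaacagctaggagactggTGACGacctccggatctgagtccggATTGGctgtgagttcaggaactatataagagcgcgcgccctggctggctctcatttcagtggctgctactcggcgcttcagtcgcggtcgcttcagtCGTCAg
Tap1: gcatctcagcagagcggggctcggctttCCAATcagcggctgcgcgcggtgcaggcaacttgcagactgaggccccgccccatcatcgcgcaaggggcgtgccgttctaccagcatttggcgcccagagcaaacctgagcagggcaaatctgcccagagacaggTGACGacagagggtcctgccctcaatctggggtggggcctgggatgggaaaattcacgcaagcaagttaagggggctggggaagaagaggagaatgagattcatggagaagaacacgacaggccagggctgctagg
Psmb8: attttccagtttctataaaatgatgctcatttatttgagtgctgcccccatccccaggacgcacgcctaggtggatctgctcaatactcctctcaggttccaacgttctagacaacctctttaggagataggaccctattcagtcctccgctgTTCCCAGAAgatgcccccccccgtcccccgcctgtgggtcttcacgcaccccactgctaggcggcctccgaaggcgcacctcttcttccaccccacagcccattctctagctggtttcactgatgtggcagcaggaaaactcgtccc

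The letters of the interferon-stimulated response element (ISRE), GAAANNGAA or GAANNGAAA on either strand, were found in the windows of 4 of the 9 members, which were H2-K1, H2-D1, H2-T23 and B2m. The same letters were found in 14.8% of all 32851 windows. The second form of the letters was added after the members' windows had been read, and the matches in H2-K1 and H2-D1 are of that form only. Those in H2-T23 and B2m are of the first form. The 4 of 9 thus rests in part on a form taken from the same windows, and the share of all windows with the first form alone was not counted. The letters of the gamma-activated sequence, TTCNNNGAA, were found in the window of Psmb8 but of no other of the 9 members, and in 8.30% of all windows. The kappaB letters GGGNNNTCC were found in 2 of the 9, the classical heavy chains H2-K1 and H2-D1, and in 17.8% of all windows. The letters TGACG, the core of the X2 box of MHC promoters, was found in the windows of H2-K1, H2-D1, B2m, Tap1 and Psmb9, against 20.8% of all windows. CCAAT, the letters bound by NF-Y, were found in 7 of the 9 and in 37.4% of all windows.

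In H2-K1, H2-D1 and B2m TGACG was followed on the same strand, 25 bases further on, by ATTGG, the reverse complement of CCAAT. This spacing was noticed in the members' windows before it was counted, and it was held by 19 windows in all (0.0578%). In H2-K1 the kappaB letters began at position -125 relative to the start site, the ISRE letters at -104, TGACG at -55 and ATTGG at -30. H2-D1 had the same 4 elements in the same order, at -171, -150, -101 and -76, with 70 bases from kappaB to TGACG in both genes. The letters TATAAA, looked for after the windows had been read, began 21 bases after the annotated start in H2-K1 and at -26 in H2-D1, which is 146 and 145 bases from the kappaB letters, so the offset between the genes goes with the annotated start of H2-K1. B2m had ISRE letters at -139, TGACG at -78 and ATTGG at -53, with no kappaB letters. Psmb10 held none of the ISRE, gamma-activated, kappaB, TGACG or CCAAT letters. Tapbp, which brings empty class I molecules to the transporter, held CCAAT alone. Matches of this kind are letters in a window, and no binding was measured. Members with ISRE letters had log2 ratios from 0.47 (B2m) to 1.45 (H2-T23), a span that overlaps that of the members without them.

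**Figure D2:**
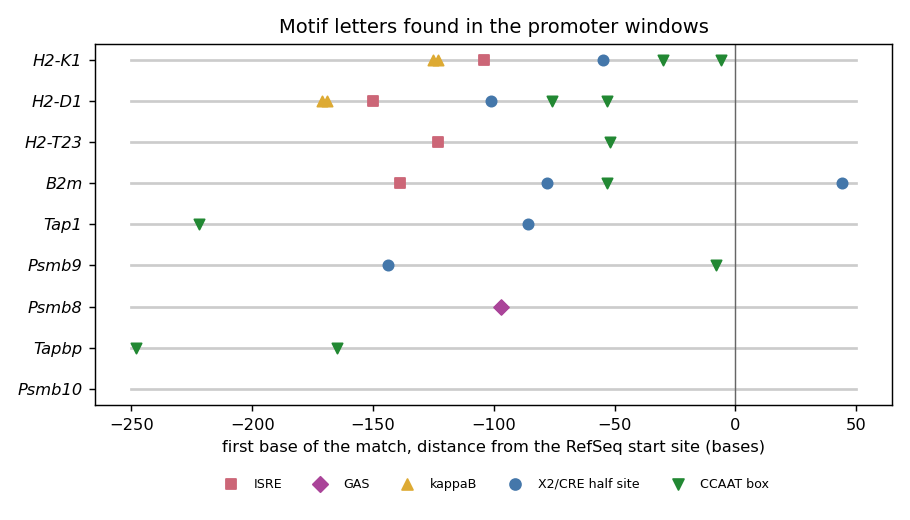
Positions of the searched motif letters in the promoter windows of 9 members, in bases from the transcription start site (x axis), one row per gene, with a marker for each motif type. H2-K1 and H2-D1 hold the same order of elements, further from the annotated start in H2-D1, and the gamma-activated letters of Psmb8 lie at -97.

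Among the heavy chains, the classical genes H2-K1 and H2-D1, which encode the peptide-presenting chains found on nearly all nucleated cells, were both higher in KO. H2-K1 (chromosome 17, 33996012 to 34000333) was at 72.8 RPKM in WT and 154.6 RPKM in KO, with a log2 ratio of 1.08 and a KO to WT ratio of 2.12 (95% counting interval 2.04 to 2.21). H2-D1 (chromosome 17, 35263094 to 35267497) was at 107 RPKM in WT and 165 RPKM in KO, with a log2 ratio of 0.62 and a ratio of 1.54 (1.49 to 1.59). The counting intervals of the 2 ratios do not overlap, and the H2-D1 to H2-K1 ratio of levels was 1.47 in WT and 1.07 in KO. The pair together was 1.77 times higher in KO, at 180.0 and 319 RPKM. These intervals, here and below, come from fragment numbers estimated from the RPKM and the exon length, and they cover counting error only, not differences between cultures.

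H2-T23, which encodes the nonclassical Qa-1 chain that presents leader peptides of other class I chains to natural killer cell receptors, lay further along chromosome 17 (36029977 to 36032701). It was at 8.05 RPKM in WT and 23.7 RPKM in KO, with a log2 ratio of 1.45 and a KO to WT ratio of 2.95 (2.60 to 3.35), so its ratio was above that of both classical chains beyond counting error. Its level in KO remained below that of H2-K1 in WT. Class I heavy chains are near copies of one another, and reads from one can be counted for another. Of the 49-base stretches of each transcript, 9.36% of H2-K1, 14.9% of H2-D1 and 30.6% of H2-T23 also occur in transcripts of other genes. How such reads were assigned is not given in the sources used here, and the resulting error in the heavy chain levels was not measured.

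B2m, which encodes the light chain shared by all class I heavy chains, was the most abundant member in both libraries (chromosome 2, 122147687 to 122153082). It was at 527 RPKM in WT and 729 RPKM in KO, with a log2 ratio of 0.47 and a KO to WT ratio of 1.38 (1.35 to 1.41). Its RPKM was 2.93 times the summed RPKM of H2-K1 and H2-D1 in WT and 2.28 times in KO. None of its 49-base stretches occurs in another gene. Under quantile normalisation, which gives both libraries the same distribution of values, its log2 ratio was 0.17.

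The transporter and loading genes lie on chromosome 17 as well. Tap1, 1 of the 2 subunits of the peptide pump (34187556 to 34197225), was at 10.13 RPKM in WT and 31.4 RPKM in KO, with a log2 ratio of 1.54 and a KO to WT ratio of 3.10 (2.88 to 3.35). Its partner Tap2 (34204479 to 34216321) was at 13.1 and 19.9 RPKM, a log2 ratio of 0.57 and a ratio of 1.52 (1.40 to 1.64). The subunits work as a pair, and the order of their levels was the opposite in the 2 libraries, with Tap1 at 0.771 of the Tap2 level in WT and 1.58 times that level in KO. Tapbp, which encodes tapasin (33919478 to 33929290), was at 29.9 and 58.3 RPKM, a log2 ratio of 0.94 and a ratio of 1.95 (1.86 to 2.05). Tapbp lay just under the threshold of 1, as H2-K1 lay just above it. Part of the Tap2 and Tapbp transcripts, 12.7% and 21.2% of their 49-base stretches, is shared with other annotated genes, in the main Gm15821 and Gm19412.

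The general loading and trimming machinery was measured as a list of 10 genes, of which none passed a log2 ratio of 1 in either direction, with a median of 0.05. The 3 most abundant were Calr, the chaperone calreticulin (657 RPKM in WT and 805 in KO), Hspa5, the endoplasmic reticulum chaperone BiP (533 and 751), and Pdia3, the disulphide isomerase of the loading complex (313 and 298). Their log2 ratios were 0.29, 0.49 and -0.07.

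The immunoproteasome subunits included the least abundant member. Psmb9 (chromosome 17, 34182099 to 34187330) was the lowest of the 10 in both libraries, at 1.27 RPKM in WT (95% counting interval 0.868 to 1.79) and 6.17 RPKM in KO (5.21 to 7.25), from about 32 and 147 fragments. Its log2 ratio was 1.66 and its KO to WT ratio 4.86, with a counting interval of 3.30 to 7.38 that was the widest among the members. With a pseudocount of 0.1 in place of 1 its log2 ratio was 2.19, and with 5 it was 0.83.

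Psmb8 (chromosome 17, 34198195 to 34201454) was at 8.23 RPKM in WT and 27.1 RPKM in KO, with a log2 ratio of 1.61 and a KO to WT ratio of 3.30 (2.90 to 3.75). Psmb10, the only member outside chromosomes 17 and 2 (chromosome 8, 105935728 to 105938392), was at 13.8 RPKM in WT and 25.5 RPKM in KO, with a log2 ratio of 0.85 and a ratio of 1.86 (1.67 to 2.07). Both thus had KO values beyond the counting interval of their WT values, but only Psmb8 passed the threshold.

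Each immunoproteasome subunit takes the place of 1 catalytic subunit of the standard proteasome. The 3 standard subunits were close to level between the libraries: Psmb5 was at 112 RPKM in WT and 107 RPKM in KO, Psmb6 at 137 and 148, and Psmb7 at 121 and 122. Set against its standard counterpart, Psmb8 was at 7.34% of Psmb5 in WT and 25.4% in KO. Psmb9 was at 0.924% of Psmb6 in WT and 4.15% in KO. Psmb10 was at 11.4% of Psmb7 in WT and 20.97% in KO. In sum, the immunoproteasome subunits were at 23.3 RPKM in WT and 58.8 RPKM in KO, a ratio of 2.53, while the standard subunits were at 371 and 377 RPKM, a ratio of 1.02. The standard subunits remained the more abundant in both libraries, with the immunoproteasome sum at 6.28% of theirs in WT and 15.6% in KO.

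**Figure D3:**
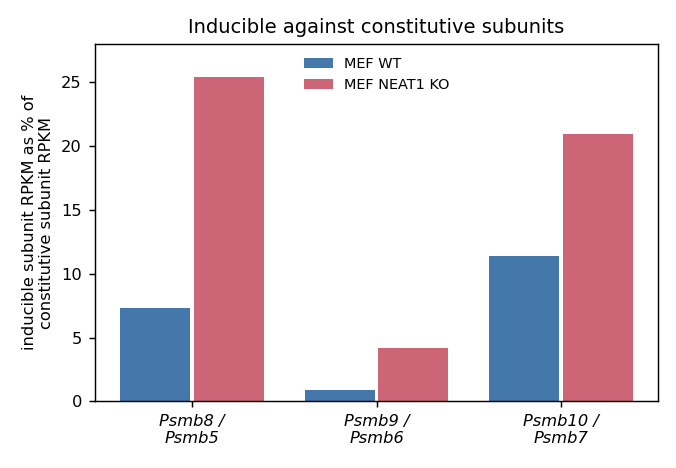
RPKM of each immunoproteasome subunit as a percentage of the standard subunit it replaces (Psmb8 of Psmb5, Psmb9 of Psmb6, Psmb10 of Psmb7) in the WT and the KO library, on an axis from 0. All 3 percentages are higher in KO, from 4.15% for Psmb9 to 25.4% for Psmb8.

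The rest of the 20S core did not follow the immunoproteasome subunits. None of 11 other core subunits passed a log2 ratio of 1 in either direction and their median was -0.20, with Psmb4 at 215 and 228 RPKM, Psma7 at 188 and 174, and Psmb2 at 145 and 158. None of 5 assembly factors passed, including Pomp, the maturation factor of the core (109 RPKM in WT and 104 in KO), Psmg4 (18.8 and 27.9) and Psmg3 (24.7 and 19.6). Among the 4 genes of the PA28 and related proteasome activators none passed. The PA28 alpha gene Psme1 was at 29.3 and 43.7 RPKM (log2 ratio 0.56), Psme3 at 52.4 and 49.4, and Psme4 at 11.6 and 8.14. Psme2, the beta subunit and partner of Psme1, was at 5.26 and 7.34 RPKM (0.41), and is named after its value was seen.

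Psmb9, Tap1, Psmb8 and Tap2 lie in this order in a stretch of 34223 bases within the class II region. The entries of Psmb9 and Tap1 face away from each other with 225 bases between them, and their start sites are 226 bases apart, so that their promoter windows share 275 bases. From Tap1 to Psmb8 there are 969 bases and from Psmb8 to Tap2 3024 bases. The divergent pair had log2 ratios of 1.66 and 1.54, although Tap1 was 7.98 times the Psmb9 level in WT and 5.10 times in KO. Tap2, at the far end, had the smallest log2 ratio of the 4 (0.57). The GENCODE transcripts of Psmb9 and Tap1 have 49-base stretches in common, which are 12.6% of those of Psmb9 and 5.65% of those of Tap1. The Psmb9 transcript used for this has 1352 bases, against 806 exon bases within its entry. The 2 entries do not overlap, so the sharing may not hold for the transcripts behind the RPKM.

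**Figure D4:**
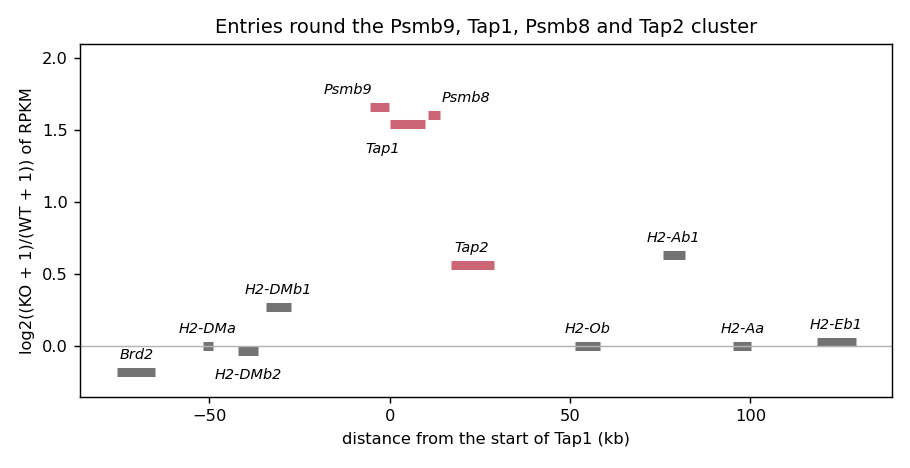
Log2 ratio of KO to WT (RPKM + 1) for the gene entries around Psmb9, Tap1, Psmb8 and Tap2 on chromosome 17, with position as the distance in kilobases from the Tap1 start. The 4 members stand at 0.57 to 1.66, and the nearest class II genes on either side, H2-DMb1 and H2-Ob, at 0.27 and 0.00. H2-Ob was listed at 0 RPKM in both libraries.

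The 3 gene entries on either side of each member or run of adjacent members gave 42 neighbours that are not members. Of these, 3 passed a log2 ratio of 1 and none passed -1, with a median of 0.01. The share above 1 was 0.977% of all entries and 1.99% of the expressed entries. Over the 26 neighbours with at least 1 RPKM in either library the median was 0.08. The 3 were themselves class I genes: H2-Q4, a Qa-region heavy chain beside H2-D1, and the overlapping T-region entries H2-T9 and H2-T22 beside H2-T23. A930015D03Rik, whose entry spans that of H2-T23, lay under the threshold at 0.628 RPKM in WT and 2.13 in KO (log2 ratio 0.94). It is named after its value was seen. The class II genes present peptides taken up from outside the cell, and several lie on either side of the cluster. None of 11 passed the threshold in either direction, but only 3 of the 11 reached 1 RPKM in either library. With a pseudocount of 1, a gene below 1 RPKM in both libraries cannot pass. The log2 ratios of those 3 were 0.00 to 0.64. H2-DMa was at 2.16 RPKM in WT and 2.17 in KO, H2-DMb1 at 1.505 and 2.03, and H2-Ab1 at 0.716 and 1.67, while H2-Aa was listed at 0 in both.

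Beyond the members, 27 of 29 other class I heavy chain genes of the MHC had an entry, of which 5 reached 1 RPKM in WT, a further 4 did so only in KO, and 7 were listed at 0 in both. Of the 27, 6 passed a log2 ratio of 1, against 0.977% of all entries and 1.99% of the expressed entries, and none passed -1. The median was 0.02 over the 27, most of them below 1 RPKM in both libraries. Over the 9 with at least 1 RPKM in either library it was 1.11, with log2 ratios from 0.20 to 1.99. H2-Q4 was at 5.87 RPKM in WT and 25.4 RPKM in KO (log2 ratio 1.94). H2-T22 was at 11.1 and 46.8 RPKM (1.98), and H2-T9 at 11.5 and 48.9 RPKM (1.99), but these entries overlap over 4284 bases and share their reads. H2-T10 was listed at 0.0770 and 1.22 RPKM (1.04, or 0.29 with a pseudocount of 5).

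The entries H2-Q7 (0.658 RPKM in WT and 2.59 in KO, log2 ratio 1.11) and H2-Q9 (0.664 and 2.62, 1.12) likewise overlap over 4604 bases. With a pseudocount of 5 their log2 ratios were 0.42 and 0.43. With each overlapping pair counted as 1 locus, an alternative chosen after the data were seen, 4 of 25 loci passed. H2-M3, which presents formylated peptides, was at 2.54 and 5.44 RPKM (0.86), H2-T24 at 1.70 RPKM in WT with a log2 ratio of 0.20, and H2-Q6 at 0.270 and 1.00 (0.66). Of the 49-base stretches, 40.2% of H2-Q4 and 45.6% of H2-T22 were present in other genes, and the other genes of the list were not counted in this way. Class I-like genes outside the MHC showed no such ratios: none of 7 passed, with the neonatal Fc receptor Fcgrt at 17.1 and 21.4 RPKM, Procr at 17.7 and 15.9, and the iron regulator Hfe at 3.00 and 3.30.

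**Figure D5:**
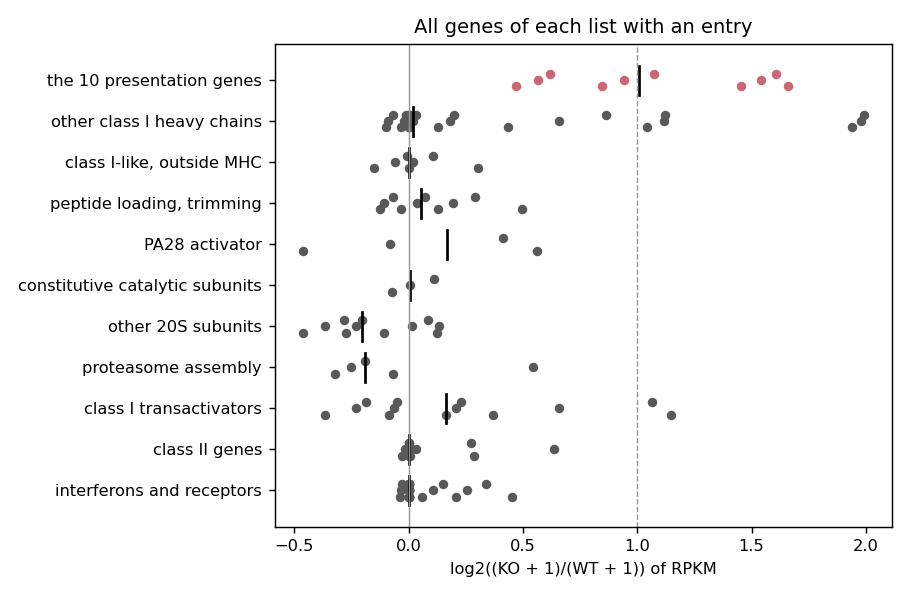
Log2 ratio of KO to WT (RPKM + 1) of each gene with an entry, by list, with points for genes, a bar at the median of each list and a dashed line at the threshold of 1. The class I presentation genes lie wholly above 0 with 5 of 10 past the line, and no gene of the loading, standard proteasome and class II lists passes it. Of the 11 class II genes only 3 reached 1 RPKM in either library, without which a gene cannot pass the line.

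Among 13 genes for transcription factors and cofactors of class I promoters, 2 passed a log2 ratio of 1 and none passed -1. Over all entries 0.977% passed 1, and over the expressed entries 1.99%. The median of the 13 was 0.16. Nfkb1, a subunit of NF-kappaB, was at 14.2 RPKM in WT and 32.8 RPKM in KO (log2 ratio 1.15), and Nlrc5, the transactivator of class I genes, at 0.498 and 2.13 RPKM (1.06). With a pseudocount of 5 their log2 ratios were 0.97 and 0.37. The other abundant factors did not pass: Rela was at 58.8 RPKM in KO with a log2 ratio of 0.23, the NF-Y subunit Nfya at 18.5 and 17.8, and Atf1 at 12.9 and 11.2. Irf1, an interferon-induced activator of class I promoters that is named after its value was seen, was at 4.39 and 7.50 RPKM (0.66).

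The interferon ligands were barely detected. Of 19 interferon genes with an entry, 15 were listed at 0 in both libraries. The highest value of the others was 0.0758 RPKM, that of Ifnb1 in KO, which was listed at 0 in WT. Ifng, the gene of interferon gamma, was listed at 0 in both. Of 6 receptor genes 5 were at 1 RPKM or more in both libraries, and none passed the threshold, with Ifngr2 at 42.4 and 53.9 RPKM, Ifngr1 at 26.3 and 30.5, and Ifnar1 at 15.2 and 18.4.

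The cell type named in the labels was checked against its markers. All 12 fibroblast markers were at or above 1 RPKM in at least 1 library, led by Vim (3151 RPKM in WT and 2448 in KO) and Col1a1 (1477 and 1874). A log2 ratio of 1 was passed by 3 of them: Lum (7.98 and 33.0 RPKM), Dcn (19.8 and 64.0) and Pdgfra (4.18 and 13.8). Over all entries 0.977% passed this threshold, and over the expressed entries 1.99%. The same shares stand beside the marker lists below. Markers of macrophages and leukocytes, cells that express class I presentation genes at high levels, were all higher in KO, as were 10 of the 12 fibroblast markers. Of the 12 macrophage and leukocyte markers only 7 reached 1 RPKM in either library. Mrc1, named although it is low, was nearly level at 0.0804 RPKM in WT and 0.0817 in KO. Of these 12, 3 passed the threshold, Lyz2 (13.9 and 34.7 RPKM), Cd68 (2.79 and 7.26) and Cd14 (1.67 and 4.73). The summed level of the 12 was 23.4 RPKM in WT and 56.9 in KO, a ratio of 2.43, with Lyz2 the largest part in both libraries. Fcer1g was at 0.944 and 2.68 RPKM, Tyrobp at 1.91 and 2.93, Laptm5 at 0.816 and 1.65 and Emr1 at 0.482 and 1.37. The defining leukocyte gene Ptprc, named although it is low, was at 0.0449 and 0.0813 RPKM. The part of such cells in the higher class I levels was not tested. Dendritic and lymphoid markers did not reach 1 RPKM, with 8 of 10 listed at 0 in both libraries. Of the 7 endothelial markers only Egfl7 (5.08 RPKM in KO, log2 ratio 0.40) and Kdr (1.01 RPKM in WT and 0.397 in KO) reached 1 RPKM in either library, and of the 7 epithelial markers only Krt19 (24.6 and 25.9) and Krt18 (1.02 and 0.660).

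Over the 2 libraries the entries whose levels lay closest to those of H2-K1, by Euclidean distance in log2(RPKM + 1) with the members left out, were Junb (80.5 RPKM in WT and 148 in KO, distance 0.15), Slc2a1 (64.1 and 185, 0.31), Creb3l1 (70.3 and 123, 0.33), Ier3 (63.9 and 194, 0.38) and Gas6 (79.3 and 119, 0.39). With only 2 libraries this describes levels and says nothing of shared control.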

How the data were processed

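Poly-A+ RNA was sequenced from 1 WT and 1 NEAT1 KO fibroblast line. The authors deposited 1 table of RPKM per library, without counts, each with 23329 entries. Per the labels, the submitters' processing notes name CASAVA 1.8 and build mm10, and the aligner is not given in the sources used here. RPKM scales each gene to its length and library, so differences are relative to the other transcripts, and reads shared by paralogues may be counted for either.

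A further gene of the transactivator list is not reported here and is not in its counts. The members, lists and naming rule were chosen with earlier results of these data known. Ratios were log2((KO + 1)/(WT + 1)) with a threshold of 1, and no p-value was computed. Named are all members, list genes past the threshold, the 3 most abundant of the others in each list, the neighbours past the threshold, the 5 entries nearest to H2-K1, and marker genes of at least 1 RPKM (of the fibroblast markers only the most abundant and those past the threshold), with exceptions stated where they occur. Fragment numbers were estimated from the spacing of low values and GENCODE M21 exon lengths, and 95% intervals were exact (Poisson for a level, binomial for a ratio). Among 3320 low entries the commonest KO to WT ratio was 1.06 (124 entries), the same as the ratio of fragment worth. Coordinates are those of the files, written from 1. Promoters came from RefSeq (GRCm38.p6). A planned comparison of protein sequences was not made, and shared 49-base transcript stretches were counted in its place. They were counted on the longest matching GENCODE M21 transcript of each gene, which can be longer than the entry behind the RPKM. Python 3.11.15, pandas 2.3.3, numpy 2.4.6, scipy 1.17.1 and matplotlib 3.10.9 were used. The log2 ratio call and the recovery of the step size were tested on simulated data. The fragment numbers, counting intervals, motif search and shared stretches were not tested in this way.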

Additional observations from a re-analysis of the deposited data

How the results depend on the processing

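No paired analysis was possible because each genotype has 1 library and no result comes from a test. All 10 members stayed above a log2 ratio of 0 under pseudocounts of 0.1 and 5, centring on the median and quantile normalisation, and none of the members or of the pathway genes past a log2 ratio of 1 changed sign. Among the list medians, that of the standard catalytic subunits went from 0.01 to -0.02 under quantile normalisation, and the other list genes were not recomputed one by one. The number past 1 was 5, or 4 with a pseudocount of 5 and 6 with centring, where Tapbp reached 1.00. With a pseudocount of 0.1, 1 member (Psmb9) passed a log2 ratio of 2 and 1 class II gene and 9 other class I heavy chains (6 with a pseudocount of 1) passed 1. With a pseudocount of 5, 3 other class I heavy chains and 0 class I transactivators passed 1, the latter against 2 (Nfkb1 and Nlrc5) with a pseudocount of 1. Over all entries a pseudocount of 0.1 gave 500 above 1, 118 above 2 and 540 below -1, and a pseudocount of 5 gave 114, 17 and 14. Low values move with the pseudocount by its construction. Differences between cultures of 1 genotype could not be measured.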
